A study of Homo sapiens with 6 samples.

Results

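The stress-induced secreted factors are 8 human genes, GDF15, FGF21, STC1, STC2, VEGFA, INHBE, ADM and ANGPTL4. All encode proteins that leave the cell, among them hormones, growth factors and inhibitors of enzymes. They were chosen by name, with earlier results of these data known. Each was matched to the transcript cluster (the group of probes read as 1 transcript) that carries its symbol on the GeneChip HTA 2.0 array. All 8 had exactly 1 cluster, among 22411 genes with a cluster of 1 symbol and 67528 clusters in all. RNA came from SCC25, a squamous carcinoma line of the human tongue, so every group stands for 1 cell line. The control group held 3 samples kept in 0.1% DMSO for 6 h, and the TM group held 3 samples kept in tunicamycin (TM, 5 µg mL−1) for 6 h. TM blocks the first step of N-linked glycosylation and so causes endoplasmic reticulum (ER) stress. For the TM group, 1 field of the labels gives SCC28 as the line, against SCC25 in the others.

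In ER stress, misfolded proteins in the ER activate the sensors PERK, IRE1 and ATF6. PERK slows translation and lets the transcription factor ATF4 accumulate, and ATF4 and its partner CHOP then raise genes of amino acid supply and several secreted factors, by which a stressed cell can signal to its surroundings. Some of the same factors also answer hypoxia through HIF or fatty acids through PPAR, so the members were read beside gene lists of these programmes.

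The arrays labelled control 3 and TM 3 stood apart from their groups. DDIT3, which codes for CHOP, was at a log2 value of 9.28 in control 3, against 6.02 and 6.01 in control 1 and 2, and at 5.86 in TM 3, against 9.04 and 8.88 in TM 1 and 2. HERPUD1, of ER-associated degradation, and HSPA5, the ER chaperone BiP, were split between the arrays in the same way. For this reason every comparison was made over all 6 arrays and over replicates 1 and 2 only. Whether the labels of these 2 arrays were exchanged was not tested and is not stated in the labels, and every value over all 6 arrays takes the labels as given. The second set was chosen with these levels known, and it leaves 2 arrays a group. Values listed for the control or the TM arrays are log2 values in the order of replicates 1, 2 and 3. Of the squamous epithelium markers, 9 of 12 were measured and all 9 were above the upper quartile of the array values, with a list mean of 10.86 to 10.92 across arrays. The list mean was 4.65 to 4.81 for endothelium, 4.60 to 4.75 for liver, 5.97 to 6.09 for fibroblasts and 5.72 to 5.89 for leukocytes. Limma called 0 markers in either set, with the squamous list included. Of the 28 markers measured over all these lists, 7 had a limma unadjusted p under 0.05 over all 6 arrays, against 20.5% of all clusters. In replicates 1 and 2 it was 4 of 28, against 26.9% of all clusters. Of the fibroblast and leukocyte lists, 1 marker each lay above the upper quartile, CD68 in the case of leukocytes.

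In replicates 1 and 2, STC2 and VEGFA were higher with TM, and GDF15 was higher in both TM arrays without passing the test. The other 5 members, FGF21, STC1, INHBE, ADM and ANGPTL4, ranged over less than 0.3 on the log2 scale across all 6 arrays. A gene was called where its limma p, adjusted by Benjamini-Hochberg over the whole array, was under 0.05. In this set 2 of 8 members were called higher and 0 lower, where 0.546% of all clusters were called higher, 0.675% lower and 1.22% in either direction, and 1.03% of the protein-coding ones higher. At an unadjusted p under 0.05, 3 of 8 members were higher, against 14.8% of all clusters higher and 26.9% in either direction. Groups did not overlap for 4 of 8 members in this set, STC2, VEGFA, GDF15 and FGF21, all higher with TM, against 36.0% of all clusters higher and 60.6% in either direction. Over all 6 arrays, limma called 0 of 8 members and 0.00% of all clusters, and 1 of 8 members, FGF21, had an unadjusted p under 0.05, against 20.5% of all clusters in either direction. In bulk RNA, fewer responding cells and a smaller response per cell cannot be told apart.

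**Figure D1:**
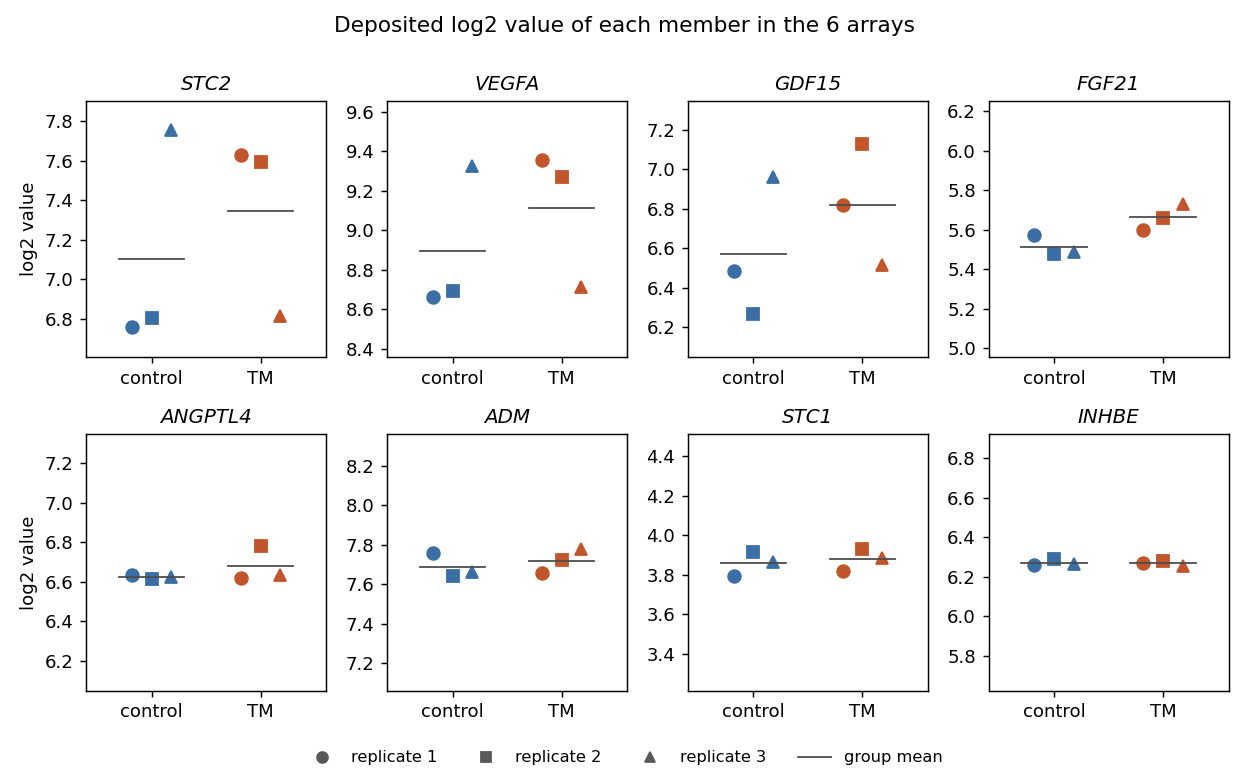
Deposited log2 value of each of the 8 members (y axes, log2 scale, all of the same height) in control 1 to 3 and TM 1 to 3 (x axes); each point is 1 array. STC2, VEGFA and GDF15 were high in TM 1, TM 2 and control 3, while the points of INHBE lie within 0.0375 of each other.

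STC2 codes for stanniocalcin 2, a secreted glycoprotein that inhibits the protease PAPPA and so limits the release of insulin-like growth factors. STC2 read 6.75, 6.80 and 7.75 in the control arrays and 7.63, 7.59 and 6.81 in the TM arrays. TM 1, TM 2 and control 3 were high and the other 3 arrays low, so that the groups overlapped over all 6 arrays and were apart in replicates 1 and 2. The difference in replicates 1 and 2 was 0.83 on the log2 scale (SE 0.06, 95% interval 0.68 to 0.99, 1.78-fold, limma adjusted p = 0.0184). With all 6 arrays it was 0.24 (SE 0.32, 95% interval −0.52 to 1.004, limma adjusted p = 0.693), with group means of 7.10 ± 0.56 (SD, n = 3) in control and 7.35 ± 0.46 (SD, n = 3) with TM. STC2 had the widest range of the 8 members over the 6 arrays, 0.998 on the log2 scale. With 1 of the 4 arrays left out the log2 difference stayed between 0.81 and 0.86. The limma adjusted p was then 0.0701 without TM 1, 0.151 without TM 2, 0.0599 without control 1 and 0.0842 without control 2, from fits in which the lone array is taken to vary like the other group and in which 0 of all clusters passed without TM 1 or without TM 2.

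VEGFA codes for vascular endothelial growth factor A, which drives the growth of blood vessels and is known as a target of both HIF and ATF4. VEGFA read 8.66, 8.70 and 9.32 in the control arrays and 9.35, 9.27 and 8.71 in the TM arrays. The arrays that were high for STC2 were high here too, with control 3 between TM 1 and TM 2 and TM 3 beside control 2. VEGFA was higher with TM in replicates 1 and 2 by 0.63 on the log2 scale (SE 0.06, 95% interval 0.47 to 0.80, 1.55-fold, limma adjusted p = 0.0334). With control 3 and TM 3 included the difference was 0.22 (SE 0.23, 95% interval −0.32 to 0.76, limma adjusted p = 0.608), between 8.89 ± 0.37 (SD, n = 3) and 9.11 ± 0.35 (SD, n = 3). Leaving out TM 1, TM 2, control 1 or control 2 kept the log2 difference between 0.59 and 0.68, with limma adjusted p values of 0.0788, 0.170, 0.0826 and 0.116 under the same limit.

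GDF15 codes for growth differentiation factor 15, a circulating stress hormone that lowers appetite through a receptor in the brainstem. GDF15 read 6.48, 6.27 and 6.96 in the control arrays and 6.82, 7.13 and 6.51 in the TM arrays. TM 2 was the highest and control 2 the lowest, and TM 3 lay just above control 1. Without control 3 and TM 3 the difference was 0.60 on the log2 scale (SE 0.13, 95% interval 0.27 to 0.92, 1.51-fold, limma adjusted p = 0.0768), with an SE above those of STC2 and VEGFA. It was 0.33 between TM 1 and control 1 and 0.86 between TM 2 and control 2. From all 6 arrays it was 0.25 (SE 0.21, 95% interval −0.25 to 0.75, limma adjusted p = 0.526). The limma adjusted p in replicates 1 and 2 was 0.0452 with a mean-variance trend and robust estimation and 0.0385 with only the brighter clusters tested, but 0.0743 after centring and 0.0927 after quantile normalization. With 1 array left out it was 0.0849 to 0.240, with a log2 difference of 0.44 to 0.75.

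For these 3 members the arrays labelled control 3 and TM 3 took the level of the other group. Control 3 differed from the mean of TM 1 and TM 2 by 0.14 for STC2, 0.01 for VEGFA and −0.01 for GDF15. TM 3 differed from the mean of control 1 and control 2 by 0.04 for STC2, 0.04 for VEGFA and 0.14 for GDF15. TM 3 minus control 3 was therefore −0.94, −0.61 and −0.45 on the log2 scale, against positive differences in replicates 1 and 2. DDIT3 moved with them, with 2.94 (SE 0.08) in replicates 1 and 2, but by a much larger step.

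**Figure D2:**
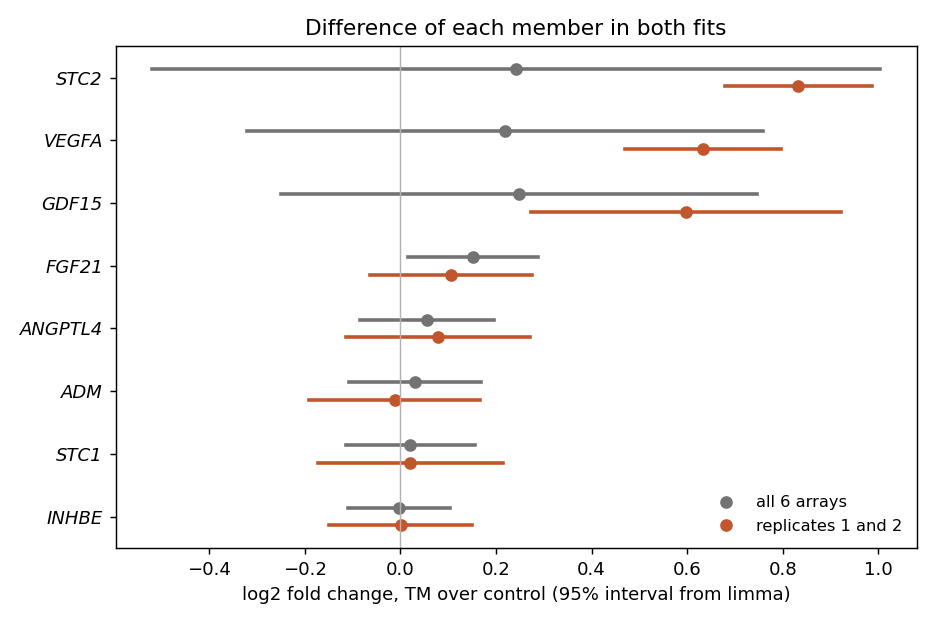
Log2 fold change of TM over control with its 95% interval from limma (x axis, log2 scale) for each of the 8 members (y axis), over all 6 arrays and over replicates 1 and 2. For STC2, VEGFA and GDF15 the intervals lie above 0 in replicates 1 and 2 and span 0 over all 6 arrays, while FGF21 alone has an interval above 0 over all 6 arrays (0.02 to 0.29).

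FGF21 codes for a fasting and stress hormone of liver and other tissues that needs the co-receptor KLB. FGF21 read 5.57, 5.48 and 5.49 in the control arrays and 5.60, 5.66 and 5.73 in the TM arrays. It was the only member whose groups did not overlap over all 6 arrays, with a gap of 0.0296 between the highest control and the lowest TM array. The share of all clusters without overlap was 20.5% higher with TM, 7.49% lower and 28.0% in either direction, and the exact permutation p was 0.1 (two-sided), the smallest that 3 against 3 can give. The difference over all 6 arrays was 0.15 on the log2 scale (SE 0.06, limma unadjusted p = 0.0326, adjusted p = 0.212), and in replicates 1 and 2 it was 0.11 (SE 0.07, 95% interval −0.06 to 0.28, limma adjusted p = 0.358). After each array's median was subtracted the difference over all 6 arrays was 0.08 (limma adjusted p = 0.473) and the groups overlapped. FGF21 differed from STC2, VEGFA and GDF15 in that control 3 lay with the other controls and TM 3 with the other TM arrays.

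INHBE, ADM, ANGPTL4 and STC1 were not called in either set, and over all 6 arrays their differences lay between −0.00377 for INHBE and 0.06 for ANGPTL4 (limma adjusted p from 0.610 to 0.970). INHBE codes for a subunit of activin E, known from liver. INHBE read 6.26, 6.29 and 6.27 in the control arrays and 6.27, 6.28 and 6.25 in the TM arrays. The values of both groups were interleaved. In replicates 1 and 2 the 95% interval ran from −0.15 to 0.15 on the log2 scale, or 0.902-fold to 1.11-fold. Of the 4 liver markers, APOA2 read 6.44 to 6.62 on the same 6 arrays, above INHBE and above FGF21. The others lay below both members, with TTR at 5.18 to 5.44, FGB at 3.40 to 3.55 and ALB at 3.30 to 3.44. Whether the clusters of INHBE and FGF21 read transcript above background was not tested. INHBE lies on chromosome 12 like DDIT3, with 2 protein-coding genes wholly between them in the RefSeq annotation, where genes that overlap either one were not counted.

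ADM codes for adrenomedullin, a peptide that widens blood vessels and a known hypoxia target. ADM read 7.76, 7.64 and 7.66 in the control arrays and 7.65, 7.72 and 7.78 in the TM arrays. The difference in replicates 1 and 2 was −0.01 on the log2 scale (SE 0.07, 95% interval −0.19 to 0.17), the groups overlapped, and ADM lay above the upper quartile of the array values on all 6 arrays, as VEGFA did.

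ANGPTL4 codes for an inhibitor of lipoprotein lipase that PPAR factors are known to induce. ANGPTL4 read 6.63, 6.61 and 6.62 in the control arrays and 6.62, 6.78 and 6.64 in the TM arrays. TM 2 alone was high, and the difference in replicates 1 and 2 was 0.08 on the log2 scale (SE 0.08, 95% interval −0.11 to 0.27). STC1 codes for stanniocalcin 1, a relative of STC2. STC1 read 3.79, 3.91 and 3.86 in the control arrays and 3.82, 3.93 and 3.88 in the TM arrays. STC1 lay below the lower quartile of the array values (3.88 to 3.99) on all 6 arrays, and its difference in replicates 1 and 2 was 0.02 (SE 0.08, 95% interval −0.17 to 0.21). It was the only member below the median of the array values.

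The promoters were searched for letters that factors of these programmes are known to bind, on both strands, from 250 bases before to 50 bases after the start. Entries for 5 of 8 members were matched in the RefSeq table (GRCh38.p14), those of GDF15, FGF21, STC2, ADM and ANGPTL4. The 250 bases before the start are shown for STC2 and GDF15, which were high in TM 1 and TM 2, and for FGF21, the only one of the 5 with the composite element of C/EBP and ATF factors, TGATGNAA. Lower-case letters run 5′ to 3′ on the strand of the gene, and capitals mark a match. They stand for the composite element in FGF21 (chr19:48755274-48755523, plus strand) and for the hypoxia response element core (ACGTG or GCGTG) in STC2 (chr5:173328415-173328664, minus strand), and GDF15 (chr19:18385908-18386157, plus strand) has none.
FGF21: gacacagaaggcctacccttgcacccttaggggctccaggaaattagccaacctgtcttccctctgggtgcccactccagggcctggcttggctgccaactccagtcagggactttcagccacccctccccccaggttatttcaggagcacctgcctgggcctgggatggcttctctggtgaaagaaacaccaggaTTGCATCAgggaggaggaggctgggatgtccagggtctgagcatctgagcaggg
STC2: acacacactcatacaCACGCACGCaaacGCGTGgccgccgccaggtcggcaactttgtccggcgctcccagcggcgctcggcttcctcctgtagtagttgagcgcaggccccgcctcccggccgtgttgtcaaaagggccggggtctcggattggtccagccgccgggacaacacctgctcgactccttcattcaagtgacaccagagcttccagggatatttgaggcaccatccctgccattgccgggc
GDF15: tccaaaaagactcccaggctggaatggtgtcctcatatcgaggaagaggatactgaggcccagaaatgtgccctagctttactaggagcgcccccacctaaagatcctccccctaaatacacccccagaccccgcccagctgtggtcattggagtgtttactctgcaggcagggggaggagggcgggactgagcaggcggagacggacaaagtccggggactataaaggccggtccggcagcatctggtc
The FGF21 match, TTGCATCA on the strand of the gene and thus the element on the opposite strand, spans −54 to −47 from the start. The element is in 3.62% of all 35116 promoters of the table. The hypoxia response element core is in 48.4% of them; STC2 had 3 matches between −235 and −218, of which 2 share a base, ADM had 1 at −101 to −97 and ANGPTL4 had 1 at −234 to −230. The ER stress response element (CCAAT, 9 bases, CCACG), its second form (ATTGG, 1 base, CCACG) and the unfolded protein response element (TGACGTGG) are in 0.0769%, 0.0541% and 0.729% of promoters. No match to these letters was found in the 5 windows. In the same search DDIT3 had no match to these letters or to the composite element, while HERPUD1 had 1 match to the composite element. The hypoxia response element core had 1 match in each DDIT3 window and 4 in HERPUD1. Of the ER stress response element, HERPUD1 matched the second form but not the first. The paper cites earlier work that places the first form in the HERPUD1 promoter too. A lack of exact letters in these windows therefore does not show that an element is absent.

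Beside the members, the ATF4 and CHOP targets, enzymes and transporters of amino acid supply and regulators of the stress response, were read. DDIT3 is on this list too, and replicates 1 and 2 were chosen with its levels known. The calls of DDIT3 and of genes that move with it are therefore not independent of that choice. Of the 28 measured, 14 were called higher in replicates 1 and 2 and 0 lower, against 0.546% and 0.675% of all clusters. The median log2 fold change was 0.46, against 0.09 over the 8 members and 0.0354 over all clusters. DDIT3, TRIB3, a pseudokinase that restrains AKT and ATF4, with 1.57 (limma adjusted p = 0.00701), and SESN2, a sensor of amino acids, with 1.59 (limma adjusted p = 0.00742), had the smallest p values. The list mean was 9.45 and 9.46 in TM 1 and TM 2 and 9.47 in control 3, against 8.81 and 8.76 in control 1 and 2 and 8.81 in TM 3. KLHL24 with −0.13 (limma adjusted p = 0.269) and ERO1A with −0.06 (limma adjusted p = 0.688) had the smallest p values among those with a negative difference. With 1 of the 4 arrays left out the list median stayed between 0.43 and 0.49. The calls then numbered 8 without control 1, 5 without control 2, and 0 without TM 1 or TM 2, where no cluster of the array passed. With all 6 arrays limma called 0 of the 28, and 1 had an unadjusted p under 0.05, against 20.5% of all clusters.

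The lists of the other programmes held 1 called gene in all. Of the hypoxia targets 1 of 25 measured was higher and 0 lower in replicates 1 and 2, with a median of −0.03. The gene called was BHLHE40, a circadian repressor, with 0.70 (limma adjusted p = 0.0254). HK2, a hexokinase, was at 0.37 (limma adjusted p = 0.060), and the collagen-modifying PLOD2, the mitophagy receptor BNIP3 and lactate dehydrogenase LDHA were at −0.20, −0.21 and −0.24, with limma adjusted p values of 0.185, 0.110 and 0.134. Of the PPAR factors and targets 0 of 12 were called (3 at an unadjusted p under 0.05, 2 higher and 1 lower), with CREB3L3, a liver ER stress factor, at 0.20 (limma adjusted p = 0.142). Of the p53 targets 0 of 12 were called (2 at an unadjusted p under 0.05, 1 in each direction), with the cell cycle inhibitor CDKN1A at 0.32 (limma adjusted p = 0.072). Limma called 0 genes of these 3 lists over all 6 arrays, and 3 genes of them had an unadjusted p under 0.05.

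**Figure D3:**
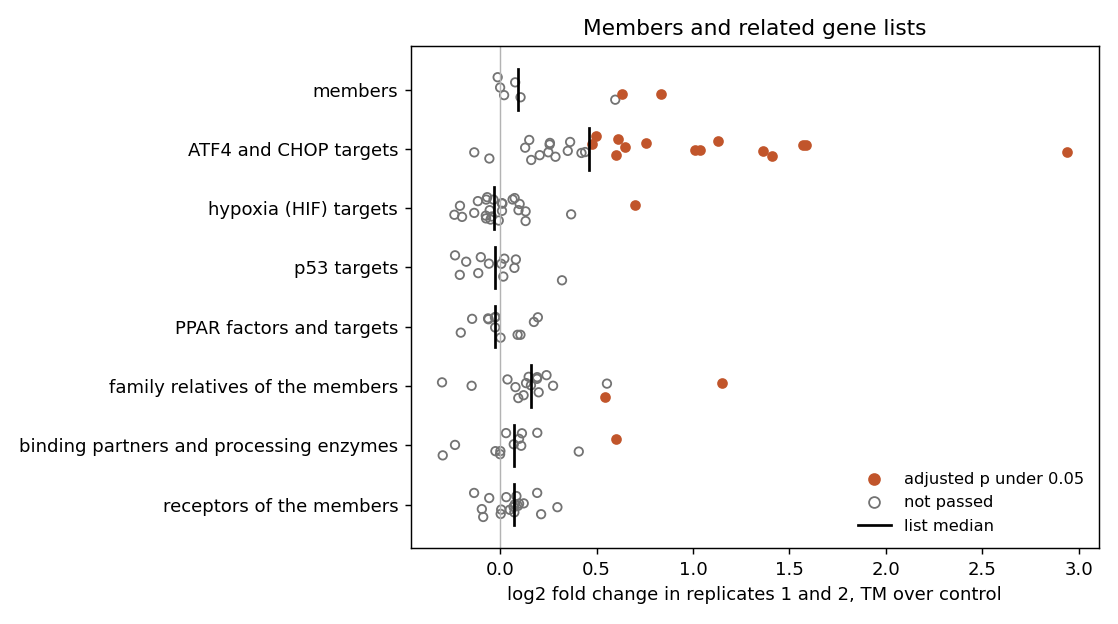
Log2 fold change of TM over control in replicates 1 and 2 (x axis, log2 scale) for each measured gene of the members and the related lists (y axis); a point is a gene, and the marks for called genes and medians are named in the key. The ATF4 and CHOP targets have 14 called genes and a median of 0.46, against 2 called genes and 0.09 for the members.

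Relatives of the members within their protein families gave 2 of 17 measured genes higher in replicates 1 and 2 and 0 lower, with a median log2 fold change of 0.16. Of all clusters 0.546% were called higher and 0.675% lower in this set. FGF19, an ileal hormone of bile acid control and a close relative of FGF21, read 6.60, 6.67 and 7.54 in the control arrays and 7.75, 7.83 and 6.75 in the TM arrays. TM 1, TM 2 and control 3 were high, as for STC2, with a difference of 1.15 (SE 0.07, 2.22-fold, limma adjusted p = 0.0127) in replicates 1 and 2 and 0.50 (limma adjusted p = 0.444) over all 6. INHBA, the subunit of activin A, read 8.91, 8.78 and 9.53 in the control arrays and 9.40, 9.39 and 8.79 in the TM arrays, with 0.54 (SE 0.07, 1.46-fold, limma adjusted p = 0.0457) in replicates 1 and 2. INHBB, the subunit of activin B, read 6.53, 6.51 and 6.41 in the control arrays and 6.25, 6.19 and 6.48 in the TM arrays, or −0.30 (limma adjusted p = 0.0717) in replicates 1 and 2. ADM2, or intermedin, read 7.27, 7.21 and 7.28 in the control arrays and 7.65, 7.94 and 7.44 in the TM arrays. All 3 TM arrays were above all 3 controls for ADM2, as for 20.5% of all clusters, with 28.0% apart in either direction. Its TM 3 value differed from the mean of control 1 and control 2 by 0.20 and from the mean of TM 1 and TM 2 by −0.35. The ADM2 difference was 0.55 (SE 0.11, limma adjusted p = 0.0688) in replicates 1 and 2 and 0.42 (limma adjusted p = 0.158) over all 6 arrays. The differences between FGF19 and FGF21, INHBA and INHBE or ADM2 and ADM were not tested.

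**Figure D4:**
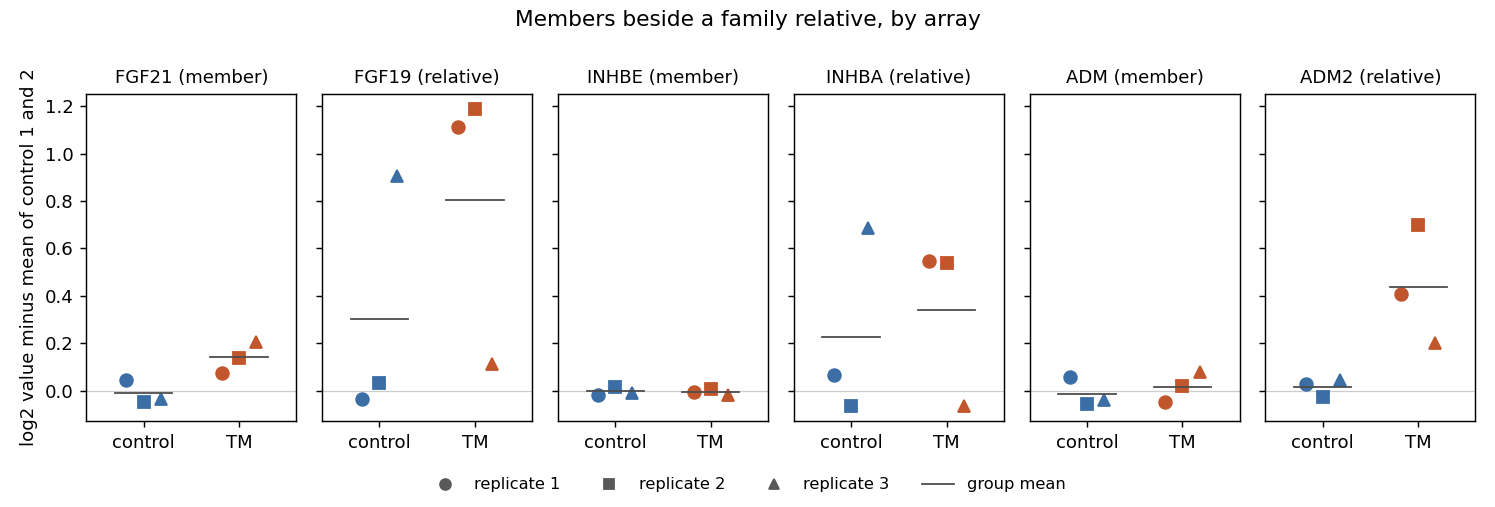
Members beside a family relative, as the log2 value in each array minus the mean of control 1 and control 2 (y axes, log2 scale) in the 6 arrays (x axes); each point is 1 array. FGF19 and INHBA were high in TM 1, TM 2 and control 3, while the members FGF21 and INHBE ranged over 0.254 and 0.0375.

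Of the receptors of the members 0 of 19 were called in replicates 1 and 2 (2 at an unadjusted p under 0.05, both higher), with a median log2 fold change of 0.07. RET, the signalling partner of the GDF15 receptor, was at 0.19 (limma adjusted p = 0.139) and RAMP2, which makes the calcitonin receptor-like receptor bind adrenomedullin, at 0.30 (limma adjusted p = 0.165). Of the binding partners and processing enzymes 1 of 13 measured was higher and 0 lower. This was FST, follistatin, which binds and neutralises activins and read 9.13, 9.08 and 9.88 in the control arrays and 9.70, 9.71 and 8.84 in the TM arrays. FST was higher by 0.60 in replicates 1 and 2 (limma adjusted p = 0.0322), with control 3 above TM 1 and TM 2 and TM 3 below control 1 and control 2. PAPPA, the protease that STC2 inhibits, was at 0.41 (limma adjusted p = 0.0536), LPL, the lipase that ANGPTL4 inhibits, at 0.19 (limma adjusted p = 0.136), and FAP, a protease that cleaves FGF21, at −0.30 (limma adjusted p = 0.083). Over all 6 arrays limma called 0 of the relatives, receptors and partners. At an unadjusted p under 0.05, 8 of 17 relatives and 3 of 19 receptors were higher and 0 lower, and 1 partner lay in each direction. The share of all clusters over the 6 arrays was 15.3% higher and 20.5% in either direction. In replicates 1 and 2 that share was 14.8% higher and 26.9% in either direction.

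Genes beside the members on the chromosome were read as well, 16 in all. On either side the nearest gene with a cluster of 1 symbol was taken, with gaps of 0 to 461198 bases. Limma called 0 of them in either set. In replicates 1 and 2, 6 had an unadjusted p under 0.05, all higher with TM, against 14.8% of all clusters higher and 26.9% in either direction. Over all 6 arrays, 6 had an unadjusted p under 0.05, against 20.5% of all clusters in either direction. LINC01512, a long non-coding RNA with a gap of 104541 bases to VEGFA, had the smallest adjusted p, at 0.39 (limma adjusted p = 0.0626) in replicates 1 and 2. LINC01512 read 5.52, 5.63 and 5.70 in the control arrays and 6.00, 5.93 and 5.96 in the TM arrays, so that, unlike for VEGFA, TM 3 lay with TM 1 and TM 2. MIR3189, which lies inside GDF15, was at 0.26 (limma adjusted p = 0.168) and FUT1, a fucosyltransferase next to FGF21, at 0.25 (limma adjusted p = 0.100) in replicates 1 and 2.

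The protein-coding clusters most like STC2 over the 6 arrays, by Pearson's r of the log2 values, were HSPBAP1 (r = 0.999), GADD45A (r = 0.998), EGR1 (r = 0.998), ITPRIP (r = 0.998) and MKKS (r = 0.998), among 18211 compared. All points share the same 6 arrays, which fell into TM 1, TM 2 and control 3 on the one side and the other 3 arrays on the other, and 231 clusters had an r over 0.98. EGR1, an immediate early transcription factor, had a log2 fold change of 0.79 in replicates 1 and 2, and GADD45A, a stress-induced growth arrest gene, 0.66.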

How the data were processed

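RNA of SCC25 cells was measured on GeneChip HTA 2.0 arrays (3 control and 3 TM samples, called independent biological replicates in the design text). The authors deposited log2 values per transcript cluster; the submitters' processing notes name MAS5, with no version, and a genome build is not given in the sources used here. No depth applies to arrays; the number of arrays limits the precision. The columns were mapped to samples by their titles. The values were used as deposited. Of several clusters of a gene, that with the highest mean over the 6 arrays was to be used, and each member had 1. Gene names come from GEO's platform annotation, matched to RefSeq (GRCh38.p14).

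All 67528 clusters were fitted with limma 3.58.1 (lmFit and eBayes, R 4.3.3), two-sided, with Benjamini-Hochberg adjustment, over all 6 arrays and over replicates 1 and 2. The fit was tested on simulated data. Named were the 8 members, 3 ER stress reference genes, up to 3 genes per list and direction with the smallest p in replicates 1 and 2, the chromosomal neighbours and the 5 clusters most like STC2. The members, lists and array sets were chosen with earlier results of these data known. Alternatives were centring on the array median, quantile normalization, the replicate number as a block, a trend with robust estimation, the brighter clusters only, and leaving out arrays. Protein features were not analysed here. Tables were made with Python 3.11.15 and plots with matplotlib 3.10.9.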

Additional observations from a re-analysis of the deposited data

How the results depend on the processing

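Under the alternatives STC2, VEGFA and GDF15 kept a positive difference in both sets of arrays. Over all 6 arrays its size depended on single arrays, and with an array left out it ran from 0.0675 to 0.567 for STC2, 0.0974 to 0.434 for VEGFA and 0.0942 to 0.444 for GDF15. Of the 8 members 0 were called over all 6 arrays and 2 without both replicate 3 arrays. In replicates 1 and 2, where 2 were called, leaving out an array gave 0 in each case. These fits have 1 array in a group, which is assumed to vary like the other group. Their counts of calls are therefore a weak measure of the stability of single genes. The log2 difference in these fits ran from 0.808 to 0.856 for STC2 and from 0.590 to 0.676 for VEGFA. The labels do not say that a number marks a shared batch. Same-numbered arrays gave r = −0.18, −0.31 and −0.53 between their deviations from the group means, values that control 3 and TM 3 enter. Within replicates 1 and 2 the correlation was −0.0662, and the numbers were not taken to pair the samples. With the replicate number as a block in replicates 1 and 2, 0 members, 5 ATF4 and CHOP targets and 0 hypoxia targets were called. The limma adjusted p was then 0.0793 for STC2, 0.0989 for VEGFA and 0.130 for GDF15. The block leaves fewer degrees of freedom, and over all clusters it gave 18 higher and 10 lower calls, against 369 and 456 without it.

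Of the hypoxia targets, 1 of which was called higher, 2 were called higher with a trend and robust estimation, 3 were called among the brighter clusters (2 higher and 1 lower), and 0 to 0 were called with an array left out. The ATF4 and CHOP targets gave 0 to 8 calls in the same fits, against 14. Over all clusters, 0 passed without TM 1 and 0 without TM 2, 70 higher and 59 lower without control 1, and 21 higher and 9 lower without control 2. Centring gave 563 higher and 1309 lower calls, quantile normalization 272 and 330, a trend with robust estimation 1860 and 2711, and the brighter clusters 2708 and 2869.

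Centring lowers every difference by the same amount, 0.0712 over all 6 arrays and 0.0415 in replicates 1 and 2, so that members near 0 changed sign by construction. Over all 6 arrays, centring gave log2 fold changes of −0.0507 for STC1, −0.0412 for ADM and −0.0148 for ANGPTL4, quantile normalization gave −0.0291 for STC1, and leaving out both replicate 3 arrays gave −0.0123 for ADM and 0.00034 for INHBE. In replicates 1 and 2, centring and quantile normalization gave −0.0205 and −0.00973 for STC1 and −0.0412 and −0.0458 for INHBE, and quantile normalization gave 0.00198 for ADM. With an array left out of the 6, the range was −0.0113 to 0.0496 for STC1 and −0.0111 to 0.00627 for INHBE. In replicates 1 and 2 it was −0.0392 to 0.0812 for STC1, −0.0170 to 0.0177 for INHBE, −0.0701 to 0.0454 for ADM and −0.00318 to 0.16 for ANGPTL4. The cause of the sign changes other than with centring was not tested. STC1, dim on every array, was not among the brighter clusters and has no value there.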
